A study of Mus musculus with 11 samples.

Results

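The genes described here are 10 immediate early genes, Fos, Jun, Junb, Jund, Egr1, Egr2, Ier2, Ier3, Arc and Btg2, chosen by name as short-lived mRNAs of the class that KHSRP protein is known to destabilise. They are 10 of 52661 genes in the authors' expression table, and all 10 are among the 23378 genes that the authors tested. The cells were Neuro-2A (N2A), an established line from a mouse neuroblastoma, which had received siRNA pools (small interfering RNAs) 48 h before polyadenylated RNA was taken. The pools were directed against Fubp1 (2 libraries), Khsrp (2 libraries), Khsrp and Fubp1 together (2 libraries, the double knockdown), Rbm38 (2 libraries), or no gene (siNT, 3 libraries). All 5 groups were transfected in the same medium with serum, and the labels name no stimulus, so the values are levels in growing cells and not a course of induction. The labels do not say whether libraries of a group came from separate cultures, so p-values measure only the spread between these libraries.

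Immediate early genes are switched on within minutes of a growth factor or synaptic signal, without new protein synthesis, and their mRNAs are removed again quickly. Much of that rapid decay runs through AU-rich elements in the 3′ untranslated region (UTR), often built from the pentamer AUUUA. KHSRP, a protein with KH domains, binds such elements in human cells and brings deadenylases and the exosome to the mRNA. FUBP1 is a relative of KHSRP with the same kind of domains and is known for binding single-stranded DNA upstream of the MYC gene and for effects on splicing, and RBM38 is a p53-induced protein that binds AU-rich and U-rich RNA.

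The 3′ UTRs show how far the class name holds. The pentamer, written ATTTA in the DNA letters of the reference, was counted on the transcript strand in the annotated 3′ UTR of 1 transcript per gene (GENCODE vM21, GRCm38). It occurred 5 times in Ier3 and in Btg2, 4 times in Fos and in Jun, 3 times in Egr2, 2 times in Egr1 and in Junb and 1 time in Jund. Arc and Ier2 held 0 in UTRs of 1668 and 755 nt, so 8 of the 10 genes held at least 1. Of 20786 genes, 65.2% held at least 1 pentamer, with a median of 1, so holding 1 does not by itself mark the class. Among these 10, Fos alone held 2 overlapping pentamers, a form found in 6.06% of genes. The Ier3 UTR, at 613 nt, had 8.16 pentamers per kb, more than 97.8% of genes, and the Fos UTR 4.91 per kb, more than 92% of genes, while Egr1 had 1.64 per kb against a median of 1.25. A match of these letters is a description and not a binding site.

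**Figure D1:**
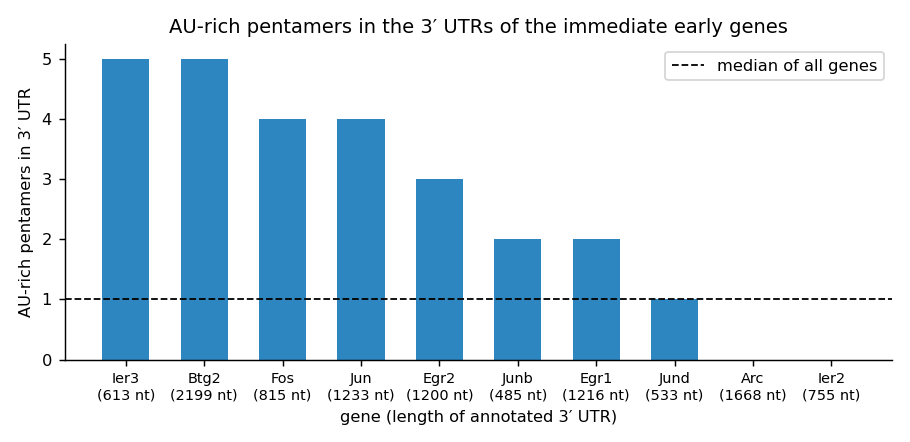
Number of AU-rich pentamers (vertical axis) in the annotated 3′ UTR of each of the 10 genes, with the UTR length in nt under the name, and the median of all genes as a dashed line. Ier3 and Btg2 have 5 each, and Arc and Ier2 have 0.

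The densest stretch of each of 7 of these 3′ UTRs is shown over 30 bases, because these letters are what the class name refers to. Each is read 5′ to 3′ on the transcript strand with the pentamers in capitals, in GRCm38. Fos lies at chr12:85477101-85477130 (plus strand), Jun at chr4:95049207-95049236 (minus), Junb at chr8:84977127-84977156 (minus), Jund at chr8:70700358-70700387 (plus), Egr2 at chr10:67541644-67541673 (plus), Ier3 at chr17:35822485-35822514 (plus) and Btg2 at chr1:134076017-134076046 (minus). In Fos the pentamers run into each other, in Ier3 they stand a few bases apart, and in Btg2 and Jun they are at opposite ends of the window.
Fos: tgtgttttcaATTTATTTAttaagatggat
Jun: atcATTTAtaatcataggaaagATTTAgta
Junb: aatatatttgtgtATTTAacagggagggga
Jund: ccgattccgccctATTTAtgtttctactcg
Egr2: tcagtgtatatccATTTAgattttgtgtat
Ier3: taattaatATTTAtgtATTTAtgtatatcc
Btg2: aATTTAtttgtagatgtgtgcaatATTTAc

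Promoter windows from 250 bases before to 50 after the start were in RefSeq's table (GRCm38.p6) for 7 of the 10 genes. Egr1, Ier2 and Arc had no window and were not searched. Motifs further upstream lie outside the windows, so a gene without a match here may still have one. The CArG box, the core of the serum response element, was found on either strand in Egr2 alone, and in 1.63% of 32851 promoters. The core motif TGACG of the cyclic AMP response element was found on either strand in 4 of the 7, Fos, Junb, Egr2 and Btg2. It was in 20.8% of all promoters. The 7 genes had 11 windows, several of them for Egr2, and a gene was counted if any of its windows matched. The shares of all promoters are per window, so they are not in the same unit as the counts of genes.

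Levels and tests came from the authors' table, which holds 1 RPKM value (reads scaled to transcript length and to library size) for each group and a log2 fold change, p-value and false discovery rate (FDR) for each knockdown against siNT. A gene is called here at an FDR under 0.05. A level from this table has no error. In siNT, the authors' RPKM ordered the genes as Ier2 (34.97), Junb (17.47), Jund (16.26), Jun (14.94), Ier3 (11.42), Egr1 (10.99), Arc (4.44), Fos (1.91), Btg2 (0.99) and Egr2 (0.58). Ier2 stood above 83.9% of tested genes in siNT, and Egr2 above 43.1%. Whether neighbours in this order differ cannot be said without errors.

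A measure for each library came from the authors' splicing table, in which exon-exon junction reads, each from spliced mRNA, are listed for every intron. Their sum over a gene's introns, scaled between libraries by the median of ratios, is called junction reads below. Fos, Egr1, Egr2, Ier3, Arc and Btg2 have introns in that table. Jun, Junb, Jund and Ier2, which the annotation gives as single-exon genes, have none and rest on the authors' values alone. Libraries held 20006125 to 46251983 junction reads in all. Differences were tested with limma on log2 values over 10961 genes, with Benjamini-Hochberg adjustment over all of them and a call at an adjusted p under 0.05. Over 9759 genes measured both ways, the log2 fold changes by junction reads and by the authors correlated across genes with r from 0.891 to 0.961, both being made from the same libraries.

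Some facts of the whole series touch these values. In the authors' deposited table each targeted mRNA was at 27.89 RPKM or less in its own knockdowns and at 34.47 RPKM or more in siNT. Khsrp mRNA was also called lower after Rbm38 knockdown, at 33.8 RPKM against 47.03 RPKM in siNT (authors' log2 fold change -0.70, FDR 0.0243). Markers of neuroblastoma cells summed to between 1130 and 1683 RPKM, with 12 of 15 at 1 RPKM or more in siNT, while those of fibroblasts, glia and of blood and vessel cells summed to at most 6.93 RPKM in any group. In the titles, siNT A and siNT B and the Fubp1 knockdown libraries carry numbers from 1 to 4, and all other libraries, siNT C among them, carry numbers from 8 to 27. On principal component 2 of the junction reads, the libraries of the lower numbers lay between 29.7 and 40.6 and the others between -31.1 and -8.3. A fit with a term for these 2 sets compares Fubp1 knockdown with siNT A and B, and the other knockdowns with siNT C. Its values are given beside results whose call they change.

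Of the 10 genes, the authors' test called 1 higher and 4 lower after Fubp1 knockdown, where 22.5% of all tested genes were called. After Khsrp knockdown it called 1 higher and 2 lower, against 8.16% of all genes, and after double knockdown 2 higher and 3 lower, against 26.8%. After Rbm38 knockdown 1 was higher and 1 lower, against 15% of all genes. The median log2 fold change of the 10 genes was -0.42, -0.46, -0.45 and 0.16 in these 4 comparisons, with 0.00 to 0.02 for the median of all tested genes. The 4 comparisons share the same siNT libraries.

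**Figure D2:**
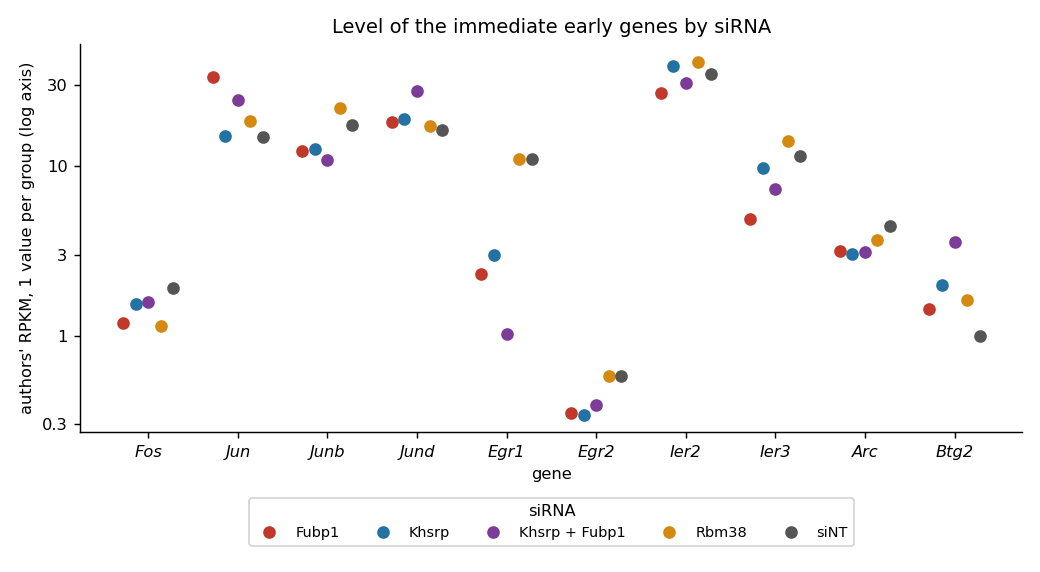
Authors' RPKM (vertical log axis, 1 value per group, no error) of the 10 genes in cells with siRNA against Fubp1, Khsrp, both, Rbm38, or siNT. Egr1 is between 1.02 and 2.99 RPKM in the first 3 groups and at 11.04 and 10.99 RPKM after Rbm38 knockdown and in siNT.

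Egr1, a zinc finger transcription factor induced by growth factor signalling, had the greatest fall of the 10 genes after Fubp1, Khsrp and double knockdown. Its level in the authors' deposited table was 2.32 RPKM after Fubp1 knockdown, 2.99 after Khsrp knockdown, 1.02 after double knockdown and 11.04 after Rbm38 knockdown, against 10.99 RPKM in siNT. The authors' log2 fold changes were -2.23 (FDR 2.99e-10), -2.04 (FDR 4.17e-08) and -3.27 (FDR 2.72e-19) for the first 3, and -0.06 (FDR 0.987) for Rbm38. In RNA from whole cultures, fewer cells with an mRNA and less of it per cell cannot be told apart.

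Egr1 was lower in the single libraries as well. Scaled junction reads were 50.3 and 51.6 after Fubp1 knockdown, 39.3 and 41.2 after Khsrp knockdown, 26 and 18.3 after double knockdown, 177 and 205 after Rbm38 knockdown, and 253, 300 and 152 in siNT. Every Fubp1, Khsrp and double knockdown library lay below every siNT library, whereas the Rbm38 libraries lay within the siNT range. How many of all genes separate in this way was not counted, so separation is only a description here and for the genes below. In limma the log2 fold change was -2.14 ± 0.30 after Fubp1 knockdown (SE, adjusted p 9.51e-04), where 32.1% of all genes were called, and -2.48 ± 0.30 after Khsrp knockdown (adjusted p 0.00203), where 9.39% were called. It was -3.34 ± 0.30 after double knockdown (limma adjusted p 4.06e-05), where 39.4% were called, which is a level at 0.0985 of that in siNT. After Rbm38 knockdown it was -0.25 ± 0.30 (limma adjusted p 0.592), with 21% of all genes called.

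The low siNT library of Egr1 was siNT C. With the term for library numbers, the limma log2 fold changes were -2.42, -1.91 and -2.78 after Fubp1, Khsrp and double knockdown (adjusted p 1.83e-04, 0.00952 and 2.14e-04), and 0.32 after Rbm38 knockdown (adjusted p 0.469). Egr1 was also lower after Khsrp than after Rbm38 knockdown, in the same library set, with a log2 difference of 2.23 ± 0.33 for Rbm38 minus Khsrp (limma adjusted p 0.0025; 15.7% of all genes called). The double minus Rbm38 difference was -3.10 ± 0.33 (limma adjusted p 1.09e-04; 33.1% called).

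Egr1 after double knockdown was compared with each single knockdown. Double minus Fubp1 was -1.21 ± 0.33 (SE, limma adjusted p 0.0219), where 33.6% of all genes differed, and double minus Khsrp was -0.87 ± 0.33 (adjusted p 0.0895), where 21.9% differed. Double minus Fubp1 missed the threshold in 3 of 11 fits that left out a library. It crosses the library sets, and with the term for them it was -0.35 (limma adjusted p 0.612). Double minus Khsrp stays within a set, and with the term it was -0.87 (limma adjusted p 0.0196). The double knockdown fell short of the sum of both single log2 changes by 1.27 ± 0.44 (limma adjusted p 0.15), a test called in 4.44% of genes, and with the term by 1.55 (adjusted p 0.0228).

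**Figure D3:**
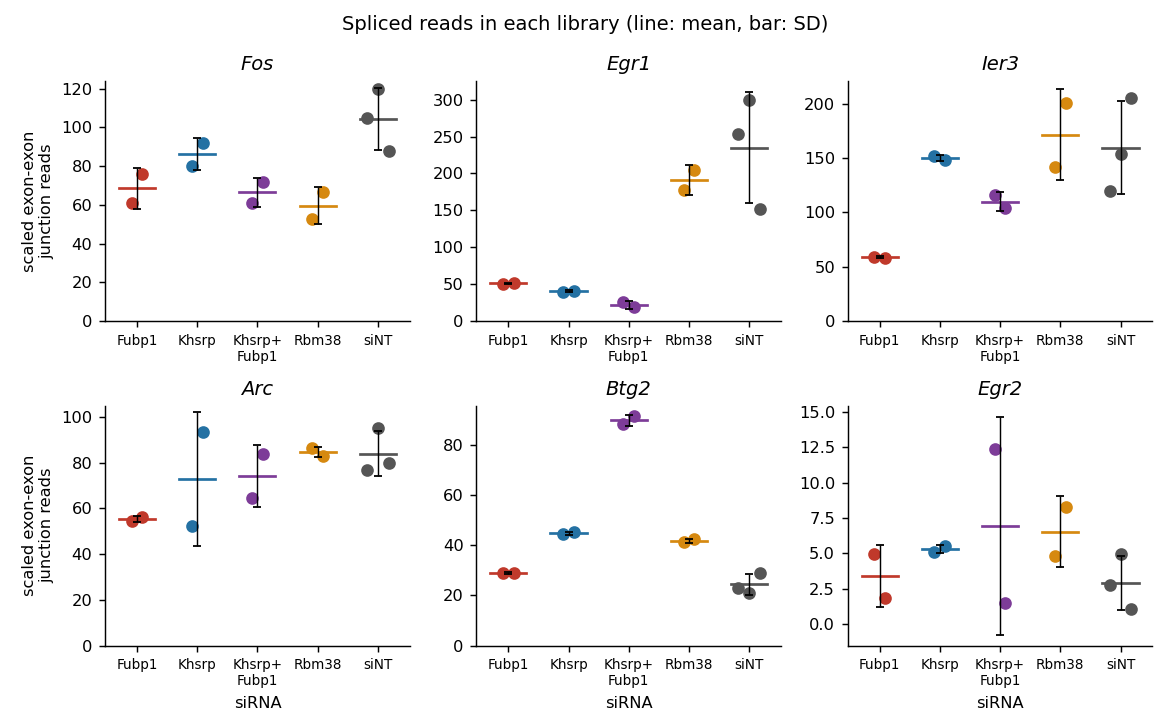
Scaled exon-exon junction reads (vertical axis) of the 6 genes with introns in each of the 11 libraries, by siRNA, with the group mean as a line and the SD as a bar. For Egr1 all 6 libraries with siRNA against Fubp1, Khsrp or both lie at 51.6 or less, below the lowest siNT library at 152, and for Btg2 both double knockdown libraries lie at 88.2 or more, against at most 28.9 in siNT.

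Egr2, the zinc finger paralog of Egr1 known from hindbrain and myelinating cells, was scarce. The authors' deposited table gives 0.35, 0.34, 0.39 and 0.58 RPKM after Fubp1, Khsrp, double and Rbm38 knockdown and 0.58 RPKM in siNT. The authors called it lower after Fubp1 knockdown (log2 fold change -1.25, FDR 8.62e-04), although their RPKM values there and after Khsrp knockdown (log2 fold change -0.63, FDR 0.274) are nearly equal. Its single intron carried 1 to 11 junction reads per library, too few for the fit. The scaled means were 3.41 ± 2.17 after Fubp1 knockdown and 2.94 ± 1.92 in siNT (SD, n = 2 and 3), so a fall of Egr2 was not detectable at this depth by junction reads.

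Among the AP-1 subunits, which pair to bind DNA, Fos and Jun changed in opposite directions after Fubp1 knockdown. Fos was at 1.19, 1.54, 1.58 and 1.14 RPKM after Fubp1, Khsrp, double and Rbm38 knockdown in the authors' deposited table, against 1.91 RPKM in siNT. The authors called it lower after Fubp1 knockdown (log2 fold change -0.71, FDR 0.0204) and after Rbm38 knockdown (-0.78, FDR 0.0149), but not after Khsrp (-0.32, FDR 0.526) or double knockdown (-0.40, FDR 0.258).

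Junction reads of Fos were 61 and 76.1 after Fubp1 knockdown, 80.2 and 92.1 after Khsrp knockdown, 61.1 and 71.6 after double knockdown, 52.7 and 66.4 after Rbm38 knockdown, and 105, 120 and 87.8 in siNT. The Fubp1, double and Rbm38 libraries all lay below siNT, and 1 Khsrp library lay within its range. Such separation was not counted over all genes. The limma log2 fold change was -0.60 ± 0.24 after Fubp1 knockdown (SE, adjusted p 0.0779), -0.64 ± 0.24 after double knockdown (adjusted p 0.0541) and -0.80 ± 0.24 after Rbm38 knockdown (adjusted p 0.0383). Only the fall after Rbm38 knockdown passed, and it missed the threshold with the term for library numbers (log2 fold change -0.57, limma adjusted p 0.193) and in 8 of 11 fits that left out a library. With that term the change after Fubp1 knockdown passed instead (-0.72, limma adjusted p 0.0393), and that after double knockdown was -0.41 (adjusted p 0.296).

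Junction reads were also read for each of the 3 introns of Fos after Rbm38 knockdown. The 754 nt intron had 20.3 ± 3.89 scaled reads after Rbm38 knockdown and 55.4 ± 19.2 in siNT (SD, n = 2 and 3). The 405 nt intron had 16.4 ± 1.54 and 23.9 ± 5.8, and the 117 nt intron 22.9 ± 12 and 24.9 ± 3.04, for the same groups. The libraries of the groups did not overlap at the 754 and 405 nt introns and overlapped at the 117 nt intron. The counts behind each intron were between 8 and 97 reads per library, and introns were not tested one by one.

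Jun rose after Fubp1 and after double knockdown. The authors' deposited table gives 33.57 RPKM after Fubp1 knockdown, 15.05 after Khsrp knockdown, 24.46 after double knockdown and 18.4 after Rbm38 knockdown, against 14.94 RPKM in siNT. The authors called it higher after Fubp1 knockdown (log2 fold change 1.20, FDR 2.69e-05) and after double knockdown (0.67, FDR 0.0307), the 2 groups that received siRNA against Fubp1. After Khsrp alone the authors' log2 fold change was -0.19 (FDR 0.808), with a ratio of RPKM that has the other sign, and after Rbm38 it was 0.19 (FDR 0.724).

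Junb and Jund, the other Jun proteins, were not called in any knockdown. Junb was at 12.23, 12.59, 10.83 and 21.95 RPKM after Fubp1, Khsrp, double and Rbm38 knockdown in the authors' deposited table, against 17.47 RPKM in siNT. The authors' log2 fold changes were -0.44, -0.99, -0.73 and 0.24 with FDR from 0.521 to 0.916. Jund was at 18.26, 19.02, 27.63 and 17.2 RPKM, against 16.26 RPKM in siNT, in the same table by the authors. Its log2 fold change by the authors after Khsrp knockdown, -0.61 (FDR 0.9), goes against its RPKM ratio, and that after double knockdown was 1.04 (FDR 0.528). A 2-fold difference that misses an FDR of 0.05, as here, leaves a wide range of possible change.

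Ier2 and Ier3 share a name and little else in these data. Ier2, a small nuclear regulator and the most abundant of the 10 mRNAs in siNT, was at 26.94, 38.9, 30.85 and 41.47 RPKM after Fubp1, Khsrp, double and Rbm38 knockdown and at 34.97 RPKM in siNT in the authors' deposited table. The authors called it in no knockdown, with log2 fold changes from -0.34 to 0.05 and FDR of 0.42 or more.

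Ier3, a stress-induced protein that affects cell survival, fell after Fubp1 knockdown. In the authors' deposited table it was at 4.88, 9.77, 7.32 and 14.15 RPKM after Fubp1, Khsrp, double and Rbm38 knockdown, against 11.42 RPKM in siNT. The authors' log2 fold change was -1.22 (FDR 1.55e-05) after Fubp1 knockdown and -0.66 (FDR 0.0288) after double knockdown, and neither Khsrp (-0.31, FDR 0.526) nor Rbm38 knockdown (0.20, FDR 0.679) passed.

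By library, junction reads of Ier3 were 59.3 and 58.2 after Fubp1 knockdown, 152 and 148 after Khsrp knockdown, 116 and 104 after double knockdown, 142 and 201 after Rbm38 knockdown, and 120, 154 and 205 in siNT. Both Fubp1 libraries lay far below the lowest siNT library, both double knockdown libraries lay just below it, and the Khsrp and Rbm38 libraries lay inside the siNT range. In limma the log2 fold change was -1.40 ± 0.25 after Fubp1 knockdown (SE, adjusted p 0.00299) and -0.50 ± 0.25 after double knockdown (adjusted p 0.139). With the term for library numbers the double knockdown gave -0.89 (limma adjusted p 0.0293).

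Of the 5 fitted genes, Ier3 was the 1 that differed between Khsrp and Fubp1 knockdown. Khsrp minus Fubp1 was 1.35 ± 0.27 (SE, limma adjusted p 0.00515), where 40.2% of all genes differed, and Rbm38 minus Fubp1 was 1.51 ± 0.27 (adjusted p 0.00268), where 40.6% differed. Double minus Fubp1 was 0.90 ± 0.27 (limma adjusted p 0.0329), and it missed the threshold in 6 of 11 fits that left out a library. These 3 contrasts cross the library sets, and with the term for them Khsrp minus Fubp1 was 0.76, Rbm38 minus Fubp1 was 0.93 and double minus Fubp1 was 0.31 (limma adjusted p 0.192, 0.0991 and 0.641). Double minus Rbm38, within a set, was -0.62 ± 0.27 (limma adjusted p 0.115), and its adjusted p with the term was 0.0465. The double knockdown departed from the sum of both single log2 changes by 0.95 ± 0.37 (limma adjusted p 0.194).

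Arc, a synaptic protein that assembles into capsid-like particles, had the largest gaps between the measures after Khsrp, double and Rbm38 knockdown. The authors' deposited table gives 3.16, 3.02, 3.11 and 3.65 RPKM after Fubp1, Khsrp, double and Rbm38 knockdown, against 4.44 RPKM in siNT. The authors called it lower after Khsrp (log2 fold change -0.70, FDR 0.031) and double knockdown (-0.61, FDR 0.0302). Junction reads were 54.4 and 56.3 after Fubp1 knockdown, 52.1 and 93.4 after Khsrp knockdown, 64.5 and 83.8 after double knockdown, 86.3 and 83 after Rbm38 knockdown, and 76.6, 95.1 and 80 in siNT. Of the Khsrp libraries, A lay below every siNT library and B lay near the highest, and both Fubp1 libraries lay below siNT. The limma log2 fold changes were -0.59 ± 0.28 after Fubp1, -0.26 ± 0.28 after Khsrp, -0.18 ± 0.28 after double and 0.02 ± 0.28 after Rbm38 knockdown (SE, adjusted p 0.129 to 0.972), and no call was made.

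Btg2, an antiproliferative protein that binds the CCR4-NOT deadenylase, went the other way from Egr1. In the authors' deposited table it was at 1.43 RPKM after Fubp1 knockdown, 2 after Khsrp knockdown, 3.57 after double knockdown and 1.63 after Rbm38 knockdown, against 0.99 RPKM in siNT. The authors called it higher after Khsrp (log2 fold change 1.04, FDR 4.97e-05), double (1.86, FDR 1.46e-17) and Rbm38 knockdown (0.70, FDR 0.0103). After Fubp1 knockdown their value was 0.52 (FDR 0.0594).

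Scaled junction reads of Btg2 were 28.8 and 29.1 after Fubp1 knockdown, 44.4 and 45.3 after Khsrp knockdown, 88.2 and 91.4 after double knockdown, 41.2 and 42.4 after Rbm38 knockdown, and 23.1, 21.1 and 28.9 in siNT. Replicates lay close together, and the Khsrp, double and Rbm38 libraries all lay above siNT. The limma log2 fold change was 1.87 ± 0.25 after double knockdown (SE, adjusted p 3.44e-04), a level 3.66 times that in siNT. It was 0.88 ± 0.25 after Khsrp knockdown (limma adjusted p 0.0545), 0.78 ± 0.25 after Rbm38 knockdown (adjusted p 0.0512) and 0.26 ± 0.25 after Fubp1 knockdown (adjusted p 0.457). With the term for library numbers the changes after Khsrp and Rbm38 knockdown were 0.63 and 0.53 (limma adjusted p 0.255 and 0.245).

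Btg2 was higher after double knockdown than after either single one. Double minus Khsrp, within a library set, was 0.99 ± 0.27 (SE, limma adjusted p 0.0278), and double minus Fubp1, across the sets, was 1.62 ± 0.27 (adjusted p 0.00297) and 1.24 with the term for library numbers (adjusted p 0.0868). The first of these missed the threshold in 6 of 11 fits that left out a library, with values from 0.97 to 1.02. Double minus Rbm38 was 1.09 ± 0.27 (limma adjusted p 0.0116). The departure from the sum of both single changes was 0.74 ± 0.37 (limma adjusted p 0.307).

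**Figure D4:**
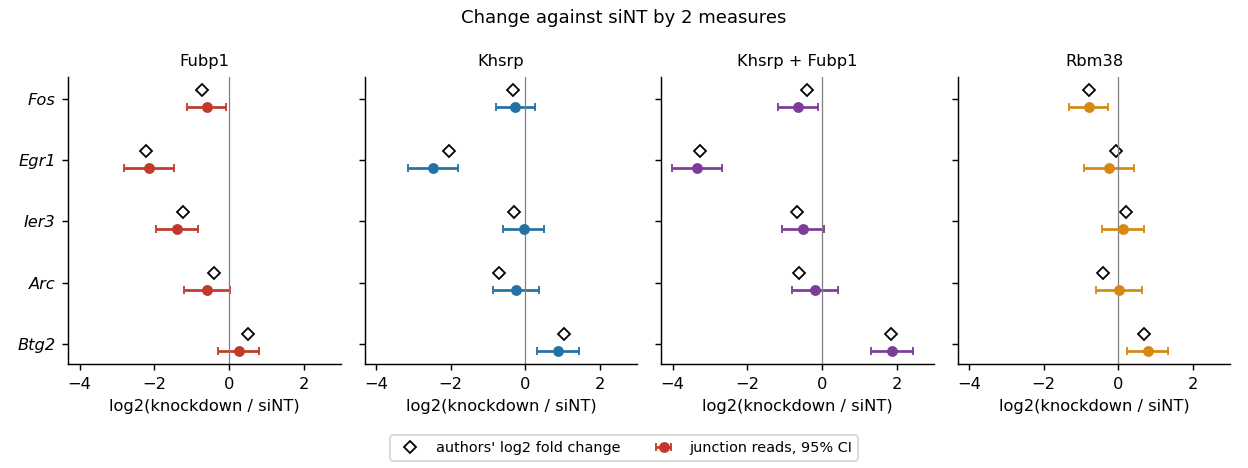
Log2 ratio of each knockdown to siNT (horizontal axis) for the 5 genes in the junction read fit, as filled points with 95% confidence intervals from limma, coloured by knockdown, and as open diamonds for the authors' log2 fold change. Egr1 lies at -2.14, -2.48 and -3.34 by junction reads after Fubp1, Khsrp and double knockdown, and Btg2 at 1.87 after double knockdown.

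Both measures together called Egr1 and Ier3 after Fubp1 knockdown, Egr1 after Khsrp knockdown, Egr1 and Btg2 after double knockdown and Fos after Rbm38 knockdown. By junction reads alone 2, 1, 2 and 1 of the 5 fitted genes passed in these comparisons. Of all 10961 genes, 32.1%, 9.39%, 39.4% and 21% passed. For the 5 genes the measures differed by at most 0.44 on the log2 scale, which was the gap of Arc after Khsrp knockdown. The junction fit called in no knockdown a gene that the authors had not called.

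Few splicing events of these mRNAs could be tested. The splicing table has 16 entries for 6 of the genes, 9 of them introns. Without the first site of the Arc pair, which mirrors the second, 11 of 15 had at least 10 reads in every library. The introns of Fos, Egr1, Egr2, Arc and Btg2 were spliced out of nearly all reads, with a mean percent spliced in (PSI, here the share of transcripts that keep the intron) of at most 0.878 over all libraries. Only the 109 nt intron of Ier3 and a 3 nt alternative 3′ splice site of Arc were tested, among 60127 events. The test needed at least 10 reads in every library and a mean PSI from 1 to 99.

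The Ier3 intron was kept at a PSI of 5.3 ± 0.0566 after Fubp1 knockdown, 2.31 ± 0.544 after Khsrp knockdown, 2.27 ± 0.148 after double knockdown and 3.31 ± 2.14 after Rbm38 knockdown, against 2.38 ± 0.231 in siNT (SD, n = 2, 2, 2, 2 and 3). The difference of 2.92 points after Fubp1 knockdown rested on 15 unspliced reads and was not called (limma adjusted p 0.403, and p 0.0328 before adjustment). The Arc site was used at a PSI of 63.5 ± 26, 73 ± 6.32, 66.5 ± 1.17 and 62.9 ± 11.3 after Fubp1, Khsrp, double and Rbm38 knockdown, against 57.3 ± 14.1 in siNT (SD, n = 2, 2, 2, 2 and 3), and was not called in any of them (limma adjusted p 0.708 to 0.931). Of all events 0.0565% were called after Fubp1, 0% after Khsrp, 6.37% after double and 0% after Rbm38 knockdown, at an adjusted p under 0.05 and 10 points. Where limma called 0 events, 5349 after Khsrp and 5479 after Rbm38 knockdown had an unadjusted p under 0.05, and limma with binomial read weights called 112 and 215. In the authors' own calls, 0 of the members' events are marked in any knockdown, among the 12 (Fubp1, Khsrp) or 13 (double, Rbm38) of 15 events that have a call.

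Reads that cross from exon into intron come from unspliced RNA, and none of the 6 genes had enough for a test. Egr1 had 1, 2, 1 and 10 such reads in all after Fubp1, Khsrp, double and Rbm38 knockdown and 11 in siNT, and Ier3 had 15, 13, 8 and 23, against 26 in siNT. In siNT, 9 of the 11 Egr1 reads came from siNT B, and siNT A and C had 1 each, like the knockdown libraries other than those of Rbm38, which had 0 or 1. Btg2 had 0, 2, 0 and 0 unspliced reads and 0 in siNT, so this RNA gives no view of its unspliced level.

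Other immediate early genes moved in both directions. Of 50 tested genes on a list of them, 10 were higher and 12 lower after Fubp1 knockdown, 2 and 5 after Khsrp, 17 and 12 after double, and 4 and 5 after Rbm38 knockdown by the authors' FDR. In the same order, 22.5%, 8.16%, 26.8% and 15% of all tested genes were called in either direction. Their median log2 fold changes by the authors were -0.15, -0.13, 0.38 and 0.02, beside -0.42, -0.46, -0.45 and 0.16 for the 10 genes. Nab1, a corepressor that binds EGR proteins, was called lower in all 4 knockdowns, at 6.03 RPKM after Fubp1, 15.3 after Khsrp, 6.83 after double and 7.73 after Rbm38 knockdown, against 22.98 RPKM in siNT in the authors' deposited table. Fosl2, a further AP-1 subunit, was higher at 17.46 RPKM after Fubp1 and 19.37 after double knockdown, against 6.58 RPKM in siNT by the authors' deposited table (FDR 4.02e-23 and 6.76e-26). Gadd45g and Atf3, both stress-induced genes, were higher after double knockdown, at 41.23 and 14.98 RPKM against 9.41 and 5.06 RPKM in siNT in the authors' deposited table. Spry4 and Dusp6, feedback inhibitors of the ERK pathway, were lower after double knockdown by the authors' log2 fold changes of -1.40 and -1.07 (FDR 4.24e-09 and 2.84e-08).

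**Figure D5:**
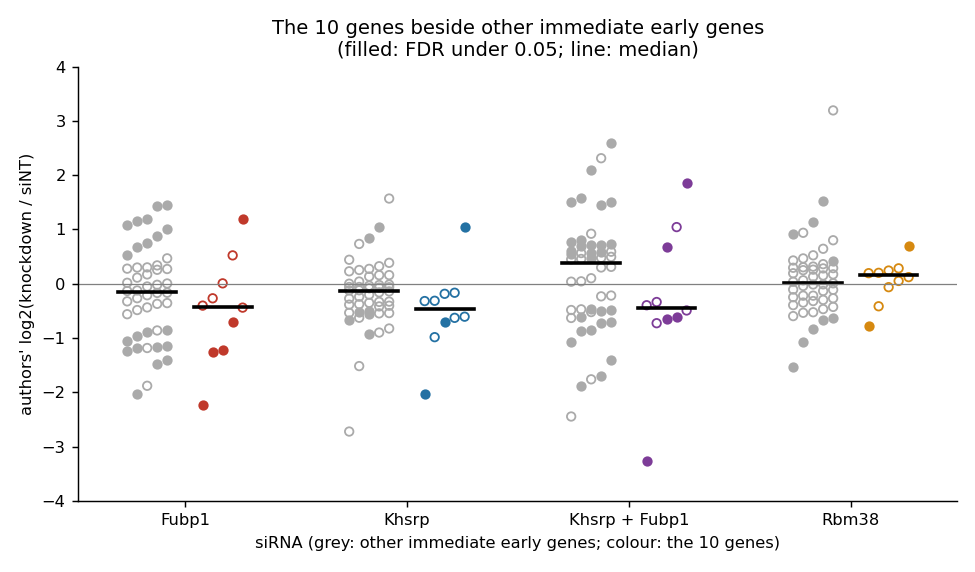
Authors' log2 fold change against siNT (vertical axis) of the 10 genes (coloured) and of other immediate early genes (grey) in each knockdown, filled where the authors' FDR is under 0.05, with medians as lines. After double knockdown the median of the 10 genes is -0.45 and that of the others 0.38, and 1 grey point lies beyond the axis.

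Genes that carry signals to the immediate early genes were measured as well. Of 33 listed kinases and transcription factors of the ERK, SRF and CREB pathways, the authors' test called 14 higher and 6 lower after Fubp1, 0 and 4 after Khsrp, 9 and 7 after double, and 1 and 9 after Rbm38 knockdown. Beside these counts, 22.5%, 8.16%, 26.8% and 15% of all tested genes were called in either direction. Elk1, a partner of SRF at Egr1 and Fos promoters, was at 15.66 RPKM after Fubp1 knockdown and 6.86 RPKM in siNT in the authors' deposited table (FDR 1.57e-10). Crem, a relative of CREB, was higher after double knockdown, at 20.12 RPKM against 9.35 RPKM in siNT in the authors' deposited table (FDR 6.94e-08). Mapkapk2, a kinase known to act on AU-rich mRNA decay, was lower after Rbm38 knockdown, at 7.16 RPKM against 20.58 RPKM in siNT in the authors' deposited table.

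On the side of mRNA decay, 19 genes of AU-rich element binding proteins were tested, with the 3 siRNA targets among them. The authors called 3 higher and 6 lower after Fubp1, 0 and 2 after Khsrp, 2 and 8 after double, and 2 and 8 after Rbm38 knockdown. The lower counts include each siRNA target in its own knockdowns, an outcome set by the siRNA: Fubp1 and Khsrp singly and both after double knockdown, and Rbm38 after its own. The Hu family members Elavl1 and Elavl4, which stabilise AU-rich mRNAs, were lower after Fubp1 knockdown. The authors' log2 fold changes were -1.03 and -1.19 (FDR 7.97e-11 and 6.17e-08). Elavl2 was also called lower after Fubp1 knockdown (-0.86, FDR 1.64e-08), and Elavl3 was not called (0.08, FDR 0.876). Zfp36, tristetraprolin, speeds the decay of AU-rich mRNAs. In the authors' deposited table it was at 6.1, 4.35, 7.89 and 4.91 RPKM after Fubp1, Khsrp, double and Rbm38 knockdown. Its level in siNT was 4.08 RPKM there, with an authors' FDR of 0.0255 after Fubp1 and 0.00891 after double knockdown. Zfp36l1 and Zfp36l2 were not called after Fubp1 knockdown (FDR 0.0643 and 0.463) or double knockdown (FDR 0.152 and 0.948) by the authors. Of 38 genes of deadenylation, decapping and the exosome, 4 were higher and 11 lower after Fubp1, 2 and 6 after Khsrp, 6 and 15 after double, and 1 and 5 after Rbm38 knockdown. For both lists, the shares of all tested genes called in either direction were 22.5%, 8.16%, 26.8% and 15%. Cnot6 and Cnot6l are catalytic subunits of the CCR4-NOT deadenylase. They were lower after double knockdown by the authors' log2 fold changes of -1.20 and -1.21 (FDR 1.24e-15 and 3.18e-15). Of the other listed Cnot genes, Cnot1, Cnot3, Cnot10 and Cnot11 were also called lower there, and Cnot8 was called higher (0.44, FDR 0.0166). Cnot2, Cnot4 and Cnot7 were not called after double knockdown.

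Of 11 further mRNAs reported as KHSRP targets in human or mouse cells, 6 had been tested. The authors called 0 higher and 3 lower after Fubp1, 0 and 2 after Khsrp, 1 and 3 after double, and 1 and 2 after Rbm38 knockdown. Over all tested genes the shares called in either direction were 22.5%, 8.16%, 26.8% and 15%. Il6, a cytokine, was at 2.5 and 3.35 RPKM after Fubp1 and double knockdown and at 21.05 RPKM after Rbm38 knockdown, against 7.81 RPKM in siNT in the authors' deposited table. Cdkn1a, the cell cycle inhibitor p21, was lower after Fubp1 knockdown, at 9.84 RPKM against 22.49 RPKM in siNT by the authors' deposited table (FDR 1.05e-10). Cdkn1a was also called lower after Khsrp knockdown (authors' log2 fold change -0.79, FDR 3.20e-05), but not after double knockdown, at 24.3 RPKM. Myc was the other gene called lower after Khsrp knockdown (-0.66, FDR 0.0326).

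Over the 11 libraries, the gene whose scaled junction reads followed those of each member most closely was found among 10956 genes by Pearson's r of log2 values, given as a description. It was Stip1 for Fos (r 0.949), Ret for Egr1 (0.979), Gins1 for Ier3 (0.977), Il2rg for Arc (0.881) and Spg21 for Btg2 (0.971). The 11 points share 5 groups and 2 library sets, and so high a value is picked from many genes.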

How the data were processed

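The authors deposited an expression table with 1 RPKM per group and, for each knockdown against siNT, a log2 fold change, a p-value and an FDR. The submitters' processing notes name mm10, Salmon 0.14.1 and edgeR. The way libraries were combined is not stated in the sources used here. The authors also deposited a splicing table, per the file headers with PSI in percent and a quality text of read numbers for each library, and a table of group PSI, used here as a score, with True or False calls. Its coordinates do not follow GRCm38 and are not printed.

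Exon-exon and exon-intron reads were read from the quality text and summed per gene. Genes with a mean of at least 10 were fitted as log2(scaled reads + 0.5) with limma 3.58.1 (trend, 1 mean per group, all 11 libraries, R 4.3.3). Events with 10 reads in every library and a mean PSI from 1 to 99 were fitted as log2 odds with 0.5 added to both reads. The files give no molecular identifiers, so read numbers are not numbers of molecules, and their spread can exceed counting error. The fits were tested on simulated data. All 10 members are reported. Genes of other lists are named at an FDR under 0.05 and an absolute log2 fold change of at least 1, up to 4 per direction, and further ones were chosen after their values were seen. The members and lists were chosen with earlier results of these data known. No 2 libraries were duplicates. Alternatives are given in the closing section.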

Additional observations from a re-analysis of the deposited data

How the results depend on the processing

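Limits of depth come first: Egr1 in the double knockdown rested on 12 and 23 reads, Egr2 on 1 to 11, and the groups have 2 or 3 libraries. Without a value per library, no alternative that leaves out a library could be run on the authors' expression values, and Jun, Junb, Jund and Ier2 have no other measure. Of 1353 recomputed values, 1197 kept their direction and, where a threshold was read, their side of it, or a count within 1.5 times. Of the rest, 34 lost a call, 37 gained one, 32 changed sign and 53 counts moved by more. The RPKM ratios were read for sign alone. Counts called for unspliced reads were fixed at 0 wherever low values were filtered, since no member passed that filter. The 1197 therefore includes values that could not have changed. All sign changes were of values not called in the main result. The cause of the changes was not tested except where named.

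In the authors' values, the count of the 10 genes called after double knockdown was 2 at an FDR under 0.01 and 2 with an absolute log2 fold change of at least 1, against 5 as reported, and after Rbm38 knockdown it was 0 under both, against 2. Recomputing the adjustment changed no count. The log2 ratio of RPKM with a pseudocount of 0.1 had the other sign than the authors' log2 fold change after Khsrp knockdown for Jun (0.01), Jund (0.22) and Ier2 (0.15), and after Rbm38 knockdown for Egr1 (0.01). With a pseudocount of 1 these were 0.01, 0.21, 0.15 and 0.01.

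In the junction reads, the count called after Fubp1 knockdown was 4 with array weights, against 2. After Khsrp knockdown it was 2, against 1, with a pseudocount of 5, with scaling by total, with array weights and with no trend. After Rbm38 knockdown, where 1 was called, it was 2 with a pseudocount of 5, array weights or no trend, and 0 with no filter or with the term for library number. A mean of at least 50 reads leaves Btg2 out, giving 1 call after double knockdown, 0 for double minus Khsrp and 1 for double minus Rbm38. Khsrp minus Fubp1 had 0 calls with the term and 2 with array weights or no trend, against 1. Double minus Khsrp had 2 with the term or array weights, against 1, double minus Fubp1 0 with the term, against 3, and Rbm38 minus Fubp1 1 with the term, against 2. The departure from the sum had 1 call with the term or array weights, against 0. Signs changed with the term for Egr1 after Rbm38 knockdown (0.32), Ier3 after Rbm38 knockdown (-0.28) and Egr1 in Khsrp minus Fubp1 (0.51), and with array weights for Ier3 after Khsrp knockdown (0.15).

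A minus B differences over 10961 genes correlated from 0.117 to 0.448 in the 6 pairs of groups without Rbm38 and from -0.698 to -0.125 in the 4 pairs with it. The labels tie the letters to no shared batch, so they were not taken to pair libraries. With them as a replicate block, the count was 2 after Khsrp, 2 after Rbm38 knockdown and 2 for double minus Khsrp, against 1 each, and 1 for the departure from the sum, against 0. Fos passed after Fubp1 and double knockdown (limma adjusted p 0.0241 and 0.0123), Btg2 after Khsrp and Rbm38 knockdown (0.017 and 0.0228), and Egr1 in double minus Khsrp and in the departure (0.0303 and 0.0388). Under the block Ier3 after Khsrp knockdown was 0.14, Arc after Rbm38 knockdown -0.01 and the log2 odds of the Ier3 intron after Khsrp knockdown 0.05. The log2 odds of the Arc site after Fubp1 knockdown were -0.15 with binomial read weights, and those of the Ier3 intron after double knockdown -0.04 with the term.

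Leaving out 1 library at a time gave 1 to 2 calls after Khsrp knockdown, 0 to 2 after Rbm38 knockdown, 0 to 2 for double minus Khsrp, 1 to 3 for double minus Fubp1 and for double minus Rbm38, and 0 to 1 for the departure. Log2 changes that took both signs were those of Arc after Khsrp (-0.68 to 0.16), double (-0.37 to 0.00) and Rbm38 knockdown (-0.04 to 0.11), of Ier3 after Khsrp (-0.24 to 0.14) and Rbm38 knockdown (-0.13 to 0.37), and of Ier3 in Rbm38 minus Khsrp (-0.08 to 0.42). For splicing they were the Arc site after Fubp1 (-0.72 to 1.62) and Rbm38 knockdown (-0.17 to 0.81) and the Ier3 intron after Khsrp (-0.28 to 0.24) and Rbm38 knockdown (-0.40 to 0.98). Without siNT C, Fos passed after Fubp1 and double knockdown, and Btg2 after Khsrp and Rbm38 knockdown.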

Other observations

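Beside the 10 genes, 11308 genes with a 3′ UTR and at least 0.5 RPKM in siNT were grouped by their number of AU-rich pentamers, as a description with no test. The shares called lower by the authors' FDR with 0, 1 to 2, 3 to 5, and 6 or more pentamers were 14.6%, 16%, 19.4% and 28.9% after Fubp1 knockdown, and 4.86%, 6.9%, 8.87% and 13% after Khsrp knockdown. They were 16.8%, 20.3%, 25.4% and 38.4% after double knockdown, and 10.3%, 12.5%, 14.1% and 18.3% after Rbm38 knockdown. The shares called higher in these classes were 15%, 21%, 20.5% and 17.3% after Fubp1, 6.56%, 5.6%, 6.52% and 5.16% after Khsrp, 20%, 20.7%, 18% and 13.4% after double, and 9.37%, 10.7%, 11.6% and 12.6% after Rbm38 knockdown. The median UTR length of the 4 classes was 393, 961, 1821 and 3302 nt, so the pentamer number and the length cannot be told apart here. None of the 10 genes is in the top class, and of the 5 with 3 to 5 pentamers, Ier3 was lower and Jun and Btg2 were higher after double knockdown, while Fos and Egr2 did not pass.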
